A study of Mus musculus with 8 samples.

Results

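The 10 markers of macrophages as a class, Adgre1, Csf1r, Cd68, Lyz2, Mpeg1, Ms4a7, Ptprc, Lcp1, Fcer1g and Tyrobp, were followed across islets of wild-type mice and mice with a transgene for human islet amyloid polypeptide, with and without a chemical chaperone. They were taken as a list of 10 symbols out of 17097 genes on the array, chosen with earlier results of these data known. The question was which of them stood at the wild-type level after treatment and which stayed raised. The 10 genes are read by 12 probe sets that name 1 gene each. A gene read by several probe sets is represented by the one with the highest mean over the 8 arrays. Islets of Langerhans were isolated from mice of 20 weeks. The labels give every mouse the strain designation FVB/N-Tg(Ins2-IAPP)RFHSoel/J and call the genotype wild type or hIAPP transgenic. In the transgenic mice the beta cells make human islet amyloid polypeptide from a transgene whose name gives an Ins2 promoter. Mice of either genotype were untreated, or received 4-phenylbutyrate (PBA) in water at 1 g/kg/day for 12 weeks from the age of 8 weeks. Each of the 4 groups has 2 arrays, and the labels do not say how many mice an array stands for, so the tests measure the spread between these samples. Levels are log2 values, on which a difference of 1 is a doubling. The 95th percentile of 23 non-specific control probe sets, 4.68, serves as a mark of background.

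Macrophages live in the islet along its blood vessels, take up secreted and dying material, and digest it in lysosomes. Their survival depends on signals through the receptor Csf1r, and their identity on transcription factors such as PU.1. Several of the markers studied here are surface or lysosomal proteins of phagocytes, and others are shared with other white blood cells, which is why whole-islet RNA shows their sum and not their source. In such bulk RNA, fewer macrophages and less of a transcript in each macrophage cannot be told apart.

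The tissue label was checked on beta-cell genes, and the 11 measured ones had medians of 11.6 and 11.8 in untreated wild type, 10.9 on both untreated hIAPP arrays, 11.4 on both PBA-treated hIAPP arrays, and 11.4 and 11.6 in PBA-treated wild type. Of these 11, 3 fell with the transgene (Ucn3, Trpm5 and Neurod1, list median -0.45), against 3.19% of all genes called lower, and 2 rose with PBA in hIAPP islets (Pcsk1 and Trpm5, list median 0.40), against 1.78% of all genes called higher. The beta-cell list was thus lowest in the group where the macrophage markers were highest, and its part in their changes was not tested. Arrays of a group correlated at 0.993 to 0.994 across genes. Controls added at hybridisation read 7.1 (median) on array 1 of PBA-treated wild type, where the other 7 arrays gave 9.8 to 10.2. RNA of acinar cells, the enzyme-making cells around the islets, had a median of 9.2 and 10.4 over 15 genes on the PBA-treated hIAPP arrays and of 10.8 to 12.5 on the other 6.

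Promoters of 7 of the 10 genes were in the RefSeq table used here (GRCm38.p6), and those of 4 genes are shown because the genes lie at opposite ends of the result. Cd68, Lyz2 and Ms4a7 stayed well above untreated wild type with PBA, and Lcp1, by its main probe set, stood at the level of untreated wild type. Each line holds the 250 bases before the transcription start, 5′ to 3′ on the strand of the gene. Capitals mark GAGGAA, the core that PU.1 reads, and TGANTCA, the AP-1 motif, on either strand.
Cd68, chr11:69666171-69666420, minus strand: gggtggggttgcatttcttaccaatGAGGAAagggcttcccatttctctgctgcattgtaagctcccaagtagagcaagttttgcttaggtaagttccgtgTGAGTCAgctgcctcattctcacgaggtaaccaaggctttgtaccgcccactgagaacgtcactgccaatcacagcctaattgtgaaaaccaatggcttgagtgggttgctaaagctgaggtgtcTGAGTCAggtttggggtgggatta
Lyz2, chr10:117282273-117282522, minus strand: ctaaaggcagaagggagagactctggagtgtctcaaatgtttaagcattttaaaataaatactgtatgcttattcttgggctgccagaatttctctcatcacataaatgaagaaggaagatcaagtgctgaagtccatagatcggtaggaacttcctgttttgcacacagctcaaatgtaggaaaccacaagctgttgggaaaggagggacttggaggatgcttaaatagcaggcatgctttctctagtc
Ms4a7, chr19:11336147-11336396, minus strand: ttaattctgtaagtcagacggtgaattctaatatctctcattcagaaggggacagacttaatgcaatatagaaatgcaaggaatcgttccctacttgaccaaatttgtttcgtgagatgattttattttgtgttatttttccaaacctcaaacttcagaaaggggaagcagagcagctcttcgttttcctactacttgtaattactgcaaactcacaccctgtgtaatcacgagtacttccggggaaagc
Lcp1, chr14:75130873-75131122, plus strand: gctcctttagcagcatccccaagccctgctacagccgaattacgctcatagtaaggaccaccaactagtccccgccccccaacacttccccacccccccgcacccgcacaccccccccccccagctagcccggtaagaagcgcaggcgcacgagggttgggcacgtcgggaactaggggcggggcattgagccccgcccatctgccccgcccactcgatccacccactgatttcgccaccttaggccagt
In the Cd68 window GAGGAA occurred 1 time and TGANTCA 2 times, and neither occurred in the other 3 windows shown. Over all 10 windows of the 7 genes, some with a second start, 2 held GAGGAA, those of Cd68 and of a second start of Ptprc, and 2 held TGANTCA, those of Cd68 and of the other start of Ms4a7, which is not shown. Of 32851 windows of the same length in the table, 23.3% held GAGGAA and 6.75% held TGANTCA.

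Without PBA, the transgene raised 9 of the 10 markers, by 1.35 to 3.15 on the log2 scale, against 7.77% of all genes called higher. All 10 stood above untreated wild type without overlap of the arrays, which 20.8% of all genes did. PBA in hIAPP mice lowered 8 of the 10, by 0.80 to 1.80, against 6.32% of all genes called lower. After PBA, 4 of the 10 were still above untreated wild type, against 0.252% of all genes called higher: Ms4a7, Lyz2, Cd68 and Mpeg1. Of the other 6, Tyrobp, Adgre1 and Fcer1g lay above untreated wild type on both arrays without passing, and Ptprc, Csf1r and Lcp1 overlapped it. These comparisons share arrays with each other, so their values are given side by side. The list was chosen with earlier results of these data known, so the shares of all genes are given for scale and not as a test. The median difference of the 10 was 1.90 for the transgene without PBA and -1.12 for PBA in hIAPP islets, where the medians of all genes were -0.05 and 0.

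**Figure D1:**
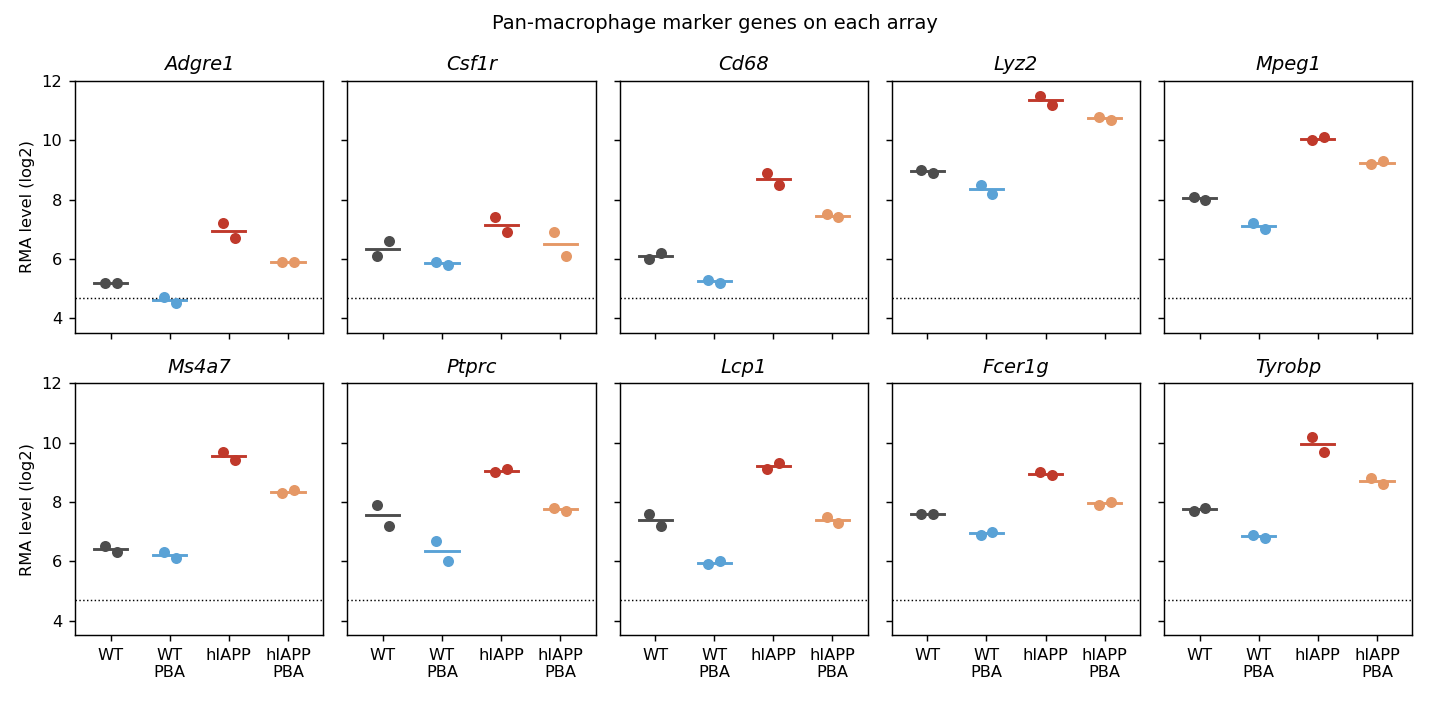
RMA level (log2) of the 10 genes on each of the 8 arrays, by group (WT, wild type), with points for arrays, short lines for means of 2 arrays and a dotted line at the background mark of 4.68. For Lyz2 the PBA-treated hIAPP arrays, at 10.8 and 10.7, lie close to the untreated ones, and for Lcp1, at 7.5 and 7.3, they lie among the untreated wild-type arrays.

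Among the surface receptors, Adgre1, an adhesion receptor whose protein is the classical surface antigen of mouse macrophages, was at 5.2 on both untreated wild-type arrays and at 7.2 and 6.7 on the untreated hIAPP arrays. With PBA it was at 5.9 on both hIAPP arrays, and at 4.7 and 4.5 in wild type. The hIAPP arrays were above all 4 wild-type arrays with and without PBA, and the PBA-treated wild-type arrays lay at the background mark. The rise was 1.75 (SE 0.17, adjusted p = 0.00113) and the change with PBA in hIAPP mice -1.05 (SE 0.17, adjusted p = 0.0112). With PBA the gene stood 0.70 above untreated wild type (95% interval 0.31 to 1.09, adjusted p = 0.182), so 40% of the rise was left and the difference did not pass. Shares of a rise, here and below, are ratios of log2 differences and not of transcript amounts.

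Csf1r, the receptor for the growth factor that keeps macrophages alive, varied most between arrays of a group. Its levels were 6.1 and 6.6 in untreated wild type, 7.4 and 6.9 in untreated hIAPP, and 5.9 and 5.8 in PBA-treated wild type. The PBA-treated hIAPP arrays were at 6.9 and 6.1, so that 1 of them matched an untreated hIAPP array and the other an untreated wild-type array. Csf1r was 0.80 higher with the transgene (SE 0.30, adjusted p = 0.144) and 0.65 lower with PBA (SE 0.30, adjusted p = 0.244), and passed in neither comparison. The difference left with PBA was 0.15 (95% interval -0.54 to 0.84), an interval that holds both no difference and the whole rise. It was -0.25 when the first of the PBA-treated hIAPP arrays was left out, 0.55 when the second was, and -0.10 without untreated wild type 1. The direction of the difference left for Csf1r thus rests on single arrays. With each array left out in turn, its rise (0.55 to 1.05) and its change with PBA (-1.05 to -0.25) kept their direction.

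Cd68, Lyz2 and Mpeg1 code for proteins of phagocytes. The first, a heavily glycosylated lysosomal membrane protein, was at 6.0 and 6.2 in untreated wild type and at 8.9 and 8.5 in untreated hIAPP islets. It was at 7.5 and 7.4 in PBA-treated hIAPP islets, between the untreated groups with no overlap, and at 5.3 and 5.2 in PBA-treated wild type. The transgene raised it by 2.6 (SE 0.15, adjusted p = 0.000268), PBA lowered it in hIAPP mice (-1.25, SE 0.15, adjusted p = 0.0045), and 1.35 was left (95% interval 0.99 to 1.71, adjusted p = 0.0201).

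Lyz2, the lysozyme of macrophages and neutrophils, kept more of its rise on the log2 scale than any other of the 10, namely 75%. The untreated wild-type arrays were at 9.0 and 8.9, the untreated hIAPP arrays at 11.5 and 11.2, and with PBA the levels were 10.8 and 10.7 in hIAPP and 8.5 and 8.2 in wild-type islets. All 4 hIAPP arrays stood above all 4 wild-type arrays. Lyz2 rose by 2.40 (SE 0.15, adjusted p = 0.000302), and its change with PBA, -0.60 (SE 0.15, adjusted p = 0.0516), missed the threshold. With PBA it was 1.80 above untreated wild type (95% interval 1.45 to 2.15, adjusted p = 0.00458), a 3.48-fold difference. The name of its probe set carries the mark x, which the maker gives to sets with probes that can match other transcripts. The closest relative, Lyz1, was at 3.0 to 4.0 on all 8 arrays by its own probe set, below the background mark.

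Mpeg1, which codes for a pore-forming protein of the phagolysosome, was at 8.1 and 8.0 in untreated wild type, and at 10 and 10.1 in untreated hIAPP islets. With PBA it was at 9.2 and 9.3 in hIAPP and at 7.2 and 7.0 in wild-type islets. No 2 of the 4 groups overlapped, and PBA-treated wild type was the lowest. The rise was 2.0 (SE 0.11, adjusted p = 0.000268), the change with PBA in hIAPP mice -0.80 (SE 0.11, adjusted p = 0.00773), and the part left 1.20 (95% interval 0.94 to 1.46, adjusted p = 0.00881), or 60% of the rise.

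Ms4a7 codes for a membrane-spanning protein of the MS4A family found in mature macrophages. It had the largest rise of the 10, from 6.5 and 6.3 in untreated wild type to 9.7 and 9.4 in untreated hIAPP islets, a difference of 3.15 (SE 0.14, adjusted p = 0.000177) or 8.88-fold. PBA-treated hIAPP islets were at 8.3 and 8.4 and PBA-treated wild-type islets at 6.3 and 6.1, the latter overlapping untreated wild type. PBA changed it by -1.20 in hIAPP mice (SE 0.14, adjusted p = 0.00417). The part left, 1.95 (95% interval 1.62 to 2.28, adjusted p = 0.00292), was the largest of the 10 in size, and 61.9% of the rise. A second probe set for Ms4a7 read 3.2 to 3.7 on all 8 arrays, below the background mark, and showed no rise of that size (0.25 between the same groups).

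Among markers shared by all white blood cells, Ptprc codes for the membrane phosphatase CD45, the leukocyte common antigen. It was at 7.9 and 7.2 in untreated wild type, at 9.0 and 9.1 in untreated hIAPP, at 7.8 and 7.7 in PBA-treated hIAPP, and at 6.7 and 6.0 in PBA-treated wild-type islets. The PBA-treated hIAPP arrays lay inside the range of the untreated wild-type arrays. Ptprc rose by 1.5 with the transgene (SE 0.28, adjusted p = 0.0147) and fell with PBA (-1.30, SE 0.28, adjusted p = 0.0325). The difference left was 0.20 (95% interval -0.45 to 0.85, adjusted p = 0.852), 13.3% of the rise. When each array was left out in turn, the rise of Ptprc (1.15 to 1.85) passed 3 times of 8, with a largest adjusted p of 0.129. Its fall with PBA (-1.35 to -1.25) passed 0 times of 8, with a largest adjusted p of 0.182.

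Lcp1, whose product L-plastin bundles actin in white blood cells, was at 7.6 and 7.2 in untreated wild type and at 9.1 and 9.3 in untreated hIAPP islets. It was at 7.5 and 7.3 in PBA-treated hIAPP islets and at 5.9 and 6.0 in PBA-treated wild-type islets. The rise of 1.80 (SE 0.16, adjusted p = 0.000862) was matched by a change of -1.80 with PBA (SE 0.16, adjusted p = 0.00196). The difference left was 0, with a 95% interval of -0.37 to 0.37 that leaves out 1.80. A second probe set for Lcp1 gave 5.1 and 5.0, 6.4 and 6.6, 4.8 and 4.7, and 4.3 and 3.9 in the same order of groups. It rose too, by 1.45, but with PBA its hIAPP arrays lay below both untreated wild-type arrays, a difference left of -0.30.

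The last pair are adaptors that pass signals from activating receptors to the kinase Syk through a tyrosine motif called ITAM. Fcer1g, the common gamma chain of Fc receptors, was at 7.6 on both untreated wild-type arrays, at 9.0 and 8.9 in untreated hIAPP, at 7.9 and 8.0 in PBA-treated hIAPP, and at 6.9 and 7.0 in PBA-treated wild-type islets. It rose by 1.35 (SE 0.10, adjusted p = 0.000506), changed by -1.0 with PBA in hIAPP mice (SE 0.10, adjusted p = 0.00236), and was left 0.35 above untreated wild type (95% interval 0.12 to 0.58, adjusted p = 0.241).

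Tyrobp, the adaptor DAP12, was at 7.7 and 7.8 in untreated wild type, at 10.2 and 9.7 in untreated hIAPP, at 8.8 and 8.6 in PBA-treated hIAPP, and at 6.9 and 6.8 in PBA-treated wild-type islets. The rise was 2.20 (SE 0.17, adjusted p = 0.00057) and the change with PBA -1.25 (SE 0.17, adjusted p = 0.00687). What was left, 0.95 (95% interval 0.55 to 1.35, adjusted p = 0.104), did not pass, although both arrays stood above untreated wild type. The 2 adaptors kept 25.9% and 43.2% of their rises, Fcer1g less than Tyrobp.

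Set side by side, the differences of PBA-treated hIAPP from untreated wild-type islets were 1.95 for Ms4a7, 1.80 for Lyz2, 1.35 for Cd68, 1.20 for Mpeg1, 0.95 for Tyrobp, 0.70 for Adgre1, 0.35 for Fcer1g, 0.20 for Ptprc, 0.15 for Csf1r and 0 for Lcp1. The intervals of neighbours in this order overlap, and the differences between genes were not tested. The interval of Lcp1 ends at 0.37 and that of Mpeg1 begins at 0.94. Adgre1, Tyrobp and Fcer1g had intervals above 0 that do not allow for the number of genes tested, so neither a full return nor a remaining rise was shown for these 3. In 7 of the 10 both PBA-treated hIAPP arrays stood above both untreated wild-type arrays, as in 15.3% of all genes.

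**Figure D2:**
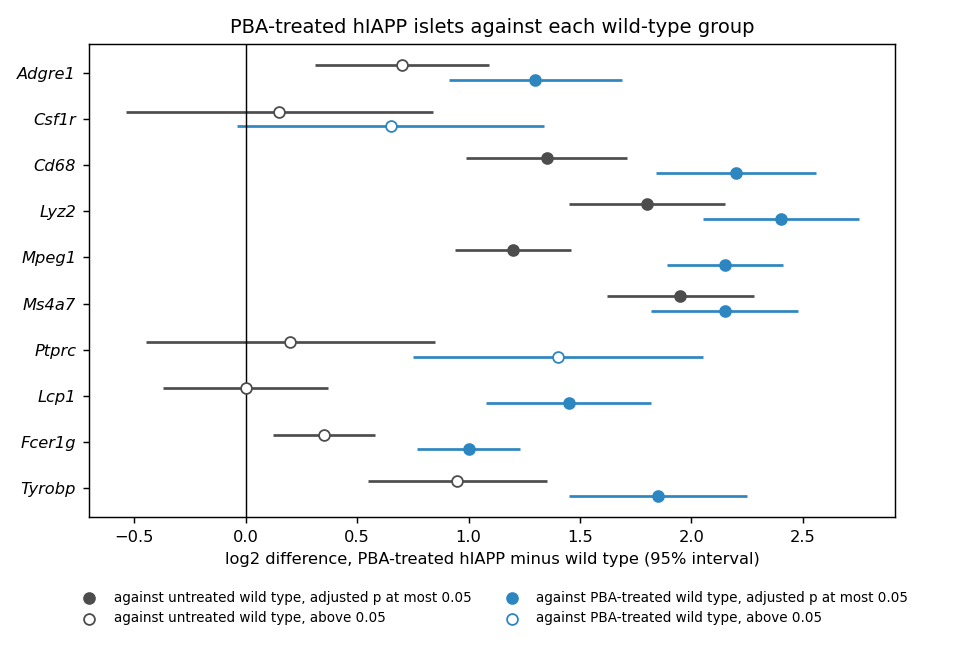
Log2 difference of PBA-treated hIAPP islets from untreated (grey) and from PBA-treated wild-type islets (blue) for each gene, with 95% intervals of the limma fit. Filled points passed the adjusted threshold of 0.05, which 4 genes did against untreated and 8 against PBA-treated wild type.

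The 4 calls against untreated wild type depended on every array, while the sizes moved little, from 1.13 to 1.45 for Cd68 and from 1.65 to 1.85 for Lyz2, except that the median of both probe sets of Ms4a7 gave 1.02, the second being at background. Leaving out either untreated wild-type array, either PBA-treated wild-type array or either PBA-treated hIAPP array left 0 of the 4, and leaving out either untreated hIAPP array left 2. Array 1 of PBA-treated wild type had low hybridisation controls, and array 1 of PBA-treated hIAPP the lowest acinar level. Without both, 0 of the 10 passed by limma, with 5 at an unadjusted p under 0.05, and Ms4a7 was at 2.0, Lyz2 at 1.75, Cd68 at 1.30 and Mpeg1 at 1.25. Acinar RNA was lower on the PBA-treated hIAPP arrays, and with its level as a covariate the same 4 differences were 2.05, 1.81, 1.13 and 1.37, of which 0 passed by limma (5 of the 10 at an unadjusted p under 0.05).

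The level called wild type mattered, because PBA also went with lower markers in mice without the transgene. All 10 means were lower in PBA-treated than in untreated wild type, by 0.20 for Ms4a7 to 1.45 for Lcp1, and 9 of the 10 without overlap of the arrays, against 14.9% of all genes. The median was -0.75, where that of all genes was 0. Of these, 2 passed, against 0.146% of all genes called lower, namely Lcp1 (-1.45, SE 0.16, adjusted p = 0.0212) and Mpeg1 (-0.95, SE 0.11, adjusted p = 0.0250). Fcer1g was at -0.65 (adjusted p = 0.0667), Cd68 at -0.85 (adjusted p = 0.104), Tyrobp at -0.90 (adjusted p = 0.122) and Ptprc at -1.20 (adjusted p = 0.209). Neither call held when any 1 of the 8 arrays was left out (Lcp1 -1.65 to -1.25, Mpeg1 -1.05 to -0.85). The acinar list, at 12.2 and 11.2 in PBA-treated and 12.4 and 10.8 in untreated wild-type islets, overlapped between these groups. With the acinar covariate both calls stood.

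**Figure D3:**
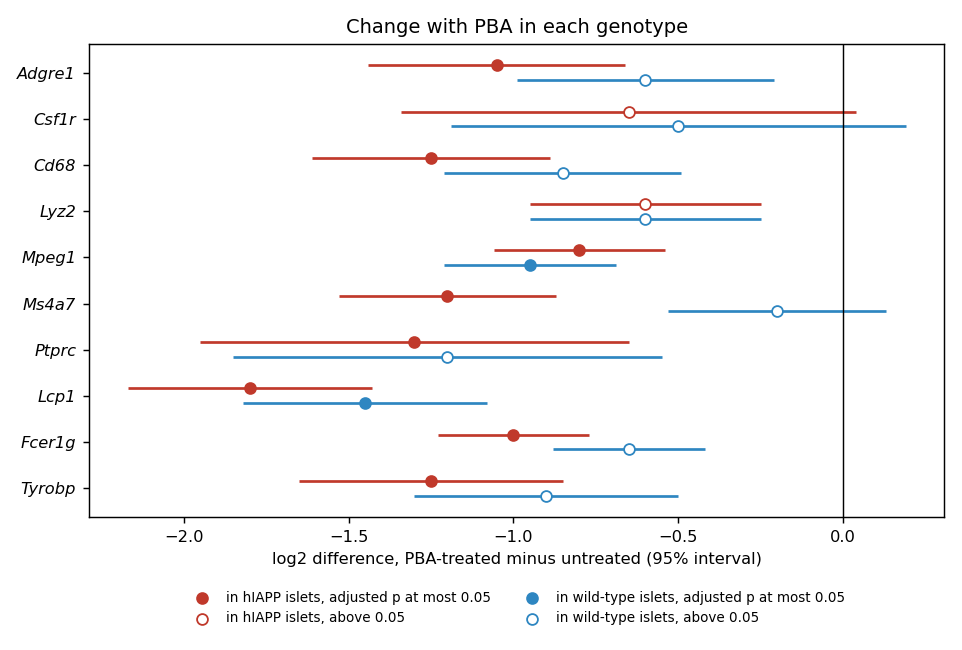
Log2 change with PBA in hIAPP (red) and wild-type islets (blue) for each gene, with 95% intervals; filled points passed the adjusted threshold of 0.05. All 10 genes lie left of 0 in both genotypes, and Ms4a7 shows the widest gap between them, -1.20 against -0.20.

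Against PBA-treated wild type, the hIAPP islets on the same drug had all 10 markers higher without overlap of the arrays, as 15.6% of all genes had, and 8 passed, against 0.316% of all genes called higher. Lyz2 stood 2.40 higher (SE 0.15, adjusted p = 0.00172), Cd68 2.20 (SE 0.15, adjusted p = 0.00215), Mpeg1 2.15 (SE 0.11, adjusted p = 0.000767) and Ms4a7 2.15 (SE 0.14, adjusted p = 0.00202). Tyrobp was 1.85, Lcp1 1.45, Adgre1 1.30 and Fcer1g 1.00 higher (adjusted p = 0.011, 0.0207, 0.0345 and 0.0155). Ptprc (1.40, 95% interval 0.75 to 2.05, adjusted p = 0.124) and Csf1r (0.65, 95% interval -0.04 to 1.34, adjusted p = 0.434) did not pass. Lcp1 thus matched untreated wild type by its main probe set and lay above PBA-treated wild type, the group where it was lowest. Its second probe set stood 0.65 above PBA-treated wild type. For 2 genes the difference under PBA was as large as without it or larger, 2.40 against 2.40 for Lyz2 and 2.15 against 2.0 for Mpeg1. The 8 calls fell to 1 without either PBA-treated array of either genotype, to 4 without either untreated wild-type array, and to 5 without either untreated hIAPP array. With the acinar covariate Mpeg1 alone passed (2.33, adjusted p = 0.0161). Without both arrays named above 0 did by limma, and 9 had an unadjusted p under 0.05.

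Whether PBA acted differently in the 2 genotypes was tested as the interaction, which 1.96% of all genes passed by limma in either direction. None of the 10 passed, and 2 had an unadjusted p below 0.05. Ms4a7 came closest, with a change in hIAPP islets minus that in wild-type islets of -1.0 (SE 0.20, adjusted p = 0.0586). It passed with a robust trended prior and with dim genes left out. Lyz2 was at 0 (95% interval -0.49 to 0.49), Mpeg1 at 0.15 (-0.22 to 0.52) and Lcp1 at -0.35 (-0.88 to 0.18), intervals that leave out a difference as large as their change in hIAPP islets. The intervals of Csf1r (-1.13 to 0.83) and Ptprc (-1.02 to 0.82) were the widest.

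The 8 falls of markers with PBA in hIAPP mice were also tied to the arrays used. Fcer1g and Lcp1 passed in all 8 fits without 1 array. The count of 8 became 2 without the first array of either hIAPP group. It was 4 without the second array of PBA-treated and 6 without that of untreated hIAPP, and 7 without any single wild-type array. With the acinar covariate it was 0 by limma (8 at an unadjusted p under 0.05), where Lcp1 was at -1.62 (adjusted p = 0.0752), Tyrobp at -1.54 (adjusted p = 0.0764) and Ptprc at -0.64 (adjusted p = 0.522), and without both arrays named above it was 0 (9 unadjusted). The 9 rises without PBA were firmer: 8 to 9 passed without any 1 array, 10 with the acinar covariate, and 5 without both arrays.

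Other cells that carry some of these markers were read from their own genes. Lists of T cell, natural killer cell, neutrophil, dendritic cell and mast cell markers had medians of 3.4 to 4.6 on every array, below the background mark. Of their defining genes, Ncr1 (2.9 to 3.5), Flt3 (3.7 to 4.6) and Cpa3 (3.1 to 4.3) lay below it on all arrays, and Cd3e (4.8 to 5.4) just above. Of 10 T cell genes 1 rose in untreated hIAPP islets, Cd3d (1.15, SE 0.19, adjusted p = 0.010), a share near the 7.77% of all genes called higher. Cd3d fell with PBA in hIAPP islets (-1.20, adjusted p = 0.0118). Of 5 dendritic genes 1 rose, Cd209a (0.75, adjusted p = 0.0274), to 4.8 and 5.1, and it fell with PBA (-0.70, adjusted p = 0.0437). Of 7 mast cell genes Kit rose (0.70, adjusted p = 0.0114) and Hdc fell with PBA (-0.80, adjusted p = 0.0134). Beside these falls stand 6.32% of all genes called lower, and the part of these cells was not tested. The B cell list had medians of 3.4 to 5.7, and 0 of its 7 measured genes passed by limma in any comparison, with 2 at an unadjusted p under 0.05 for the transgene without PBA and 3 for PBA in hIAPP islets. The median differences of the list were 0.80 for the transgene without PBA and -0.70 for PBA in hIAPP islets. In the same comparisons Cd22 was at 1.20 and -1.15, Cd79b at 0.80 and -1.50, and Blk at 0.90 and -0.70. Cd79a, a signalling chain of the B cell receptor, was at 4.9 to 5.7 on the 8 arrays, and differed by 0.40 with the transgene (adjusted p = 0.296) and by -0.05 with PBA in hIAPP islets (adjusted p = 0.905). Pax5, a transcription factor gene of B cells, was at 3.2 to 3.9, below the background mark, with differences of -0.10 and 0.30. Ms4a1, the gene of CD20, varied widely within groups, with 7.9 and 4.7 in untreated wild type and 7.8 and 8.7 in untreated hIAPP islets (1.95, SE 1.08, adjusted p = 0.315). B cells also express Ptprc, and their part in its changes was not tested.

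S100a8 and S100a9, a calcium-binding pair abundant in neutrophils and monocytes, followed another order. S100a8 was highest in untreated wild type, at 6.6 and 7.0, and was at 5.5 and 5.6 in untreated hIAPP, at 4.5 and 4.2 in PBA-treated hIAPP, and at 3.9 and 3.8 in PBA-treated wild-type islets. PBA lowered it in wild type (-2.95, SE 0.16, adjusted p = 0.0022) and less in hIAPP mice (-1.20, SE 0.16, adjusted p = 0.00654). S100a9 changed by -2.30 in wild-type and -1.60 in hIAPP islets. Tyrobp, Fcer1g, Lyz2 and Ptprc are made by these cells too, and their share in the lower wild-type levels was not tested.

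Genes of the vessel wall and connective tissue changed in the same direction as the macrophage markers in hIAPP islets. By its median, the stellate list kept the direction of the markers in every comparison. The endothelial list did not where PBA-treated hIAPP islets were set against either wild-type group. Of 10 stellate and fibroblast genes 8 rose without PBA and 7 fell with it in hIAPP islets, and of 10 endothelial genes 6 rose and 7 fell, against 7.77% and 6.32% of all genes. For PBA in wild type their medians were -0.18 and -0.12, where that of the 10 markers was -0.75, and 0 of either list passed by limma (2 stellate and 3 endothelial genes unadjusted). Under PBA the transgene left 0 of either list called (7 and 2 unadjusted), with medians of 0.82 and -0.05. There 8 of the 10 markers passed, against 0.316% of all genes called higher, with a median of 1.65. Against untreated wild type, PBA-treated hIAPP islets had 0 of either list called by limma (7 and 3 unadjusted), with medians of 0.525 and -0.125. Of the 10 markers 4 passed there (7 unadjusted), against 0.252% of all genes called higher, with a median of 0.825. The interaction was passed by 1 stellate gene, Acta2, and 3 endothelial genes, Cdh5, Tek and Vwf, against 1.96% of all genes in either direction. Whether these lists differ from the 10 markers was not tested, nor was the part of the cells that express them in the changes of the markers.

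**Figure D4:**
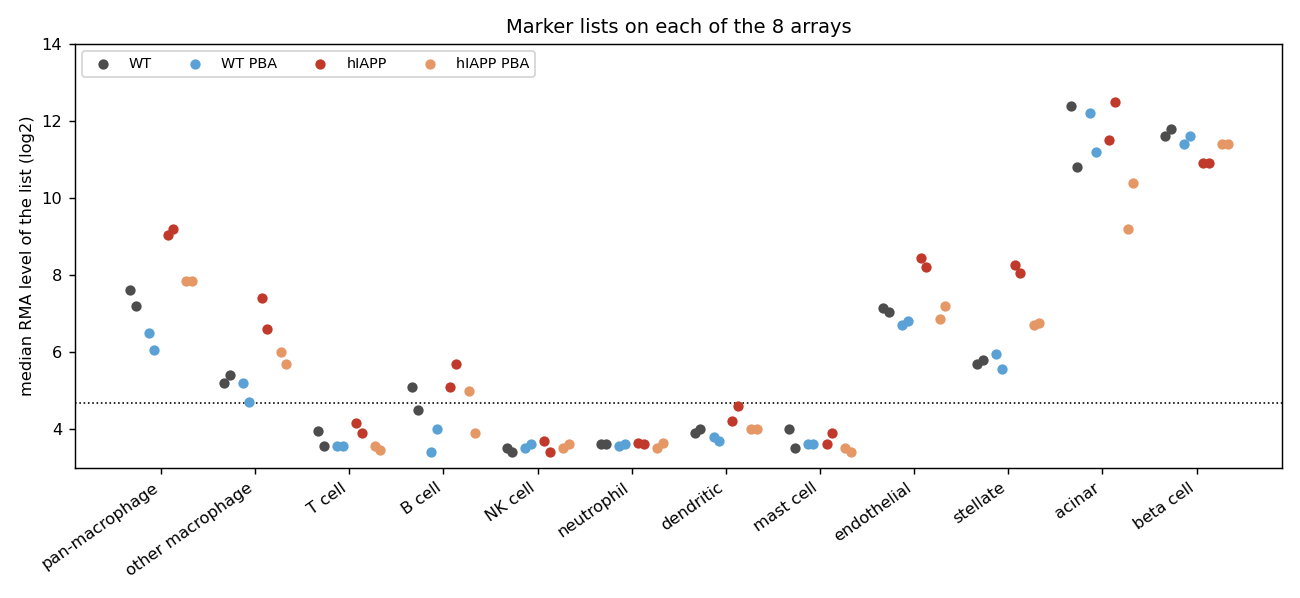
Median RMA level (log2) of 12 marker lists on each of the 8 arrays, with the dotted line at 4.68. The lists of T, natural killer, dendritic and mast cells and of neutrophils lie below the line in all groups, and the acinar list is lowest, at 9.2 and 10.4, on the PBA-treated hIAPP arrays.

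The surrounding pathways were read from lists of related genes, beside which stand the 7.77% of all genes called higher with the transgene and the 6.32% called lower with PBA in hIAPP islets. In PBA-treated hIAPP islets 0.252% of all genes were called higher than in untreated wild type. There 1874 of 17097 genes had an unadjusted p under 0.05 by limma, in either direction. Among 21 other macrophage markers 15 rose with the transgene and 15 fell with PBA in hIAPP islets, with medians of 1.45 and -1.05. Of the 21, 0 passed by limma against untreated wild type in PBA-treated hIAPP islets, with 8 at an unadjusted p under 0.05 (median 0.25, range -0.80 to 0.95), whereas 4 of the 10 genes studied did, and whether the lists differ was not tested. Against PBA-treated wild type 6 of the 21 passed, against 0.316% of all genes called higher. Lgals3, a galactose-binding lectin of phagocytes, changed by 2.30 with the transgene and by -2.05 with PBA in hIAPP mice. It stood at 8.2 and 8.3 there, near the 7.8 and 8.2 of untreated wild type, and PBA lowered it in wild type too (-1.60, adjusted p = 0.0239). Ctss, a lysosomal protease of antigen-presenting cells, went from 9.9 and 9.9 to 11.3 and 11 with the transgene and was at 10.4 and 10.4 with PBA, above untreated wild type by 0.50 without passing (adjusted p = 0.182).

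Of 14 measured growth factor and transcription factor genes of the myeloid line, 8 rose with the transgene and 8 fell with PBA in hIAPP islets, and after PBA 0 passed by limma against untreated wild type (1 unadjusted). Il34, which codes for a ligand of Csf1r, rose by 1.20 (SE 0.19, adjusted p = 0.00801), from 4.0 and 4.1 to 5.5 and 5.0, and was at 4.2 and 3.8 with PBA, so that it passed the background mark in untreated hIAPP islets alone. The other ligand gene, Csf1, was at 7.5 on both untreated wild-type and 7.3 on both untreated hIAPP arrays (-0.20, adjusted p = 0.365). Irf8, a transcription factor gene of monocytes and macrophages, rose by 1.35 and changed by -1.40 with PBA.

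Receptors that signal through ITAM adaptors or a like motif rose in 6 of 16 measured genes and fell with PBA in 6, and after PBA 0 passed by limma against untreated wild type (4 unadjusted). Clec7a, the beta-glucan receptor Dectin-1, went from 5.4 and 5.1 to 8.4 and 7.9 with the transgene, a change of 2.90 (SE 0.22, adjusted p = 0.000559). It was at 6.3 and 5.8 with PBA (-2.10, SE 0.22, adjusted p = 0.00282). Trem2, a lipid receptor that uses Tyrobp, was at 6.1 and 5.5, then 8.4 and 7.9, and 7.1 and 6.4 with PBA. Downstream of the adaptors 3 of 16 measured signalling genes rose, Pik3ap1 (1.75), Inpp5d (1.10) and Plcg2 (0.80), against 7.77% of all genes. With PBA 1 of the 16 fell, Pik3ap1 (-1.45), which is near the 6.32% of all genes. The cytoskeleton and adhesion genes of white blood cells, a list made to go with Lcp1 and Ptprc, rose in 15 of 22 and fell with PBA in 12, with medians of 1.30 and -1.18, and after PBA 0 of 22 passed by limma against untreated wild type (2 unadjusted). Capg, an actin-capping protein gene, went from 6.1 and 6.1 to 8.2 and 7.7 and was at 6.1 and 5.9 with PBA. Of 11 phagocyte oxidase and lysosome genes 6 rose and 4 fell. Cybb, a core subunit of the oxidase, was at 8.2 and 8.0 in untreated and 7.4 and 7.5 in PBA-treated hIAPP islets, against 6.8 and 6.5 in untreated wild type. Its partner Cyba was at 9.3 and 9.0 without and at 7.3 and 7.0 with PBA in hIAPP islets, near the 6.9 and 6.7 of untreated wild type.

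Genes outside the list whose pattern was closest were found by the root mean square difference from the median profile of the 10 over the 8 arrays, each value taken relative to untreated wild type. That profile was at 1.98 and 1.93 in untreated hIAPP islets. With PBA it was at 0.88 and 0.78 in hIAPP and at -0.75 and -0.83 in wild-type islets. The closest 8 were the complement genes C1qb (0.192) and C1qc (0.194), Smoc1 (0.198), Aif1 (0.207), Csrp2 (0.216), Gpc6 (0.218), Ctsh (0.234) and Tgfbi (0.266). C1qb was at 7.5 and 7.6 in untreated wild type, at 9.7 and 9.3 in untreated hIAPP, at 8.2 and 8.1 in PBA-treated hIAPP and at 7.1 and 6.9 in PBA-treated wild-type islets. C1qb, C1qc and Aif1 are macrophage genes, and Smoc1 and Gpc6, a matricellular and a proteoglycan gene, are better known from other cells. Tgfbi was the one of the 8 that passed against untreated wild type with PBA (1.25, adjusted p = 0.0335).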

How the data were processed

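The 8 arrays hold biotin-labelled RNA of islets, 2 per group. The deposited log2 values, 1 for each probe set of each array, come from RMA, with affy named beside it, per the submitters' processing notes, which give the authors' tools without versions. Values are rounded to 1 decimal. The number of arrays limits the precision. Of 45141 probe sets, 28898 name 1 gene and gave 17097 genes, 16937 of them matched to RefSeq by gene ID.

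All genes were fitted together with limma 3.58.1 in R 4.3.3, as 4 group means over 8 arrays with 4 residual and 3.27 prior degrees of freedom. Tests were two-sided, with Benjamini-Hochberg adjustment over 17097 genes and a threshold of 0.05. Genes with an unadjusted p under 0.05, in either direction, numbered 4293 for the transgene without PBA and 3928 for PBA in hIAPP islets. For PBA in wild type they numbered 1801, and for the transgene under PBA 2072. Treated hIAPP against untreated wild type gave 1874, and the interaction 2777. In simulated data for the transgene without PBA, 17097 genes had independent noise, and 50 were raised at each size. Of those raised by 0.5 (log2) 20% were recovered, 56% at 1, 96% at 2 and 100% at 3, and 4 unchanged genes were called. The real comparison called 1874 genes, and recovery with so many genes changed was not simulated. Alternatives were only the arrays compared, a robust trended prior, a filter on dim genes, the replicate block, the median of probe sets, centring on 9 reference genes, an acinar covariate, 2 arrays left out together and each array left out. Deviations of arrays with the same number correlated at -0.14 to 0.098, so the numbers were not taken to pair samples. The markers and lists were chosen with earlier results of these data known. Named beside the 10 genes are those of each list with the smallest p, preset markers and the 8 nearest in pattern.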

Additional observations from a re-analysis of the deposited data

Results flagged for a closer look

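None of the 10 marker genes differed between genotypes in its response to PBA after adjustment. Among the related genes named, Cdh5 and Tek did, as given above, and so did 6 others by limma's interaction. It was passed by 1.96% of all genes in either direction. For the 6 it is given here as the PBA change in hIAPP minus that in wild-type islets. The values were -2.20 for Clec7a (adjusted p = 0.025), -1.10 for Cd300lb (adjusted p = 0.0468), -1.35 for Cyba (adjusted p = 0.0437), -1.35 for Acta2 (adjusted p = 0.0298), -2.10 for Vwf (adjusted p = 0.0423) and 1.75 for S100a8 (adjusted p = 0.0211). S100a8 fell more in wild-type islets, and the other 5 changed more in hIAPP islets. Each passed in 2 to 5 of its 14 or 15 alternatives.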

How the results depend on the processing

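With 2 arrays a group, most calls among the markers depended on the processing. Each of the 9 rises without PBA passed in 9 (Ptprc) to 16 of 16 alternatives. The 8 falls with PBA in hIAPP islets passed in 5 (Ptprc) to 13, and both calls for PBA in wild type in 5. The 8 calls for the transgene under PBA passed in 4 (Adgre1, Fcer1g and Lcp1) to 14 (Mpeg1), and the 4 against untreated wild type in 4 (Cd68), 5 (Mpeg1) and 7 (Lyz2 and Ms4a7). Fitting only the arrays compared left 5 of the 9 rises without PBA and 0 calls for PBA in hIAPP, PBA in wild type, the transgene under PBA and treated hIAPP against untreated wild type, with 483, 14, 0, 0 and 0 genes of all called, where the full fit had 1874, 1384, 50, 71 and 63. Without array 1 of both PBA-treated groups the calls among the 10 were 5, 0, 0, 0 and 0 in the same order, and over all genes 483, 0, 0, 1 and 1, with 0 for the interaction instead of 335. A robust trended prior called 2292, 300, 349, 365 and 1060 genes from PBA in hIAPP to the interaction, 6 of the 10 for PBA in wild type, and 1 (Ms4a7) for the interaction. The dim-gene filter gave 87 and 107 genes for PBA in wild type and the transgene under PBA, and 1 of the 10 (Ms4a7) for the interaction. Centring on reference genes gave 77 for PBA in wild type and 102 for treated hIAPP against untreated wild type, and shifted the median of all genes by -0.20 to 0.10. With the acinar covariate the calls over all genes were 67, 4, 2 and 0 for PBA in hIAPP, the transgene under PBA, treated hIAPP against untreated wild type and the interaction, and among the 10 they were 0, 1, 0 and 0. With the replicate number as a block they were 5, 15, 30 and 118 for PBA in wild type, the transgene under PBA, treated hIAPP against untreated wild type and the interaction, and 0, 5, 3 and 0 among the 10. The cause of these shifts was not tested, except that fitting fewer arrays leaves fewer degrees of freedom.

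With each array left out in turn, the calls among the 10 ranged from 8 to 9 (transgene without PBA), 2 to 7 (PBA in hIAPP), 0 to 0 (PBA in wild type), 1 to 5 (transgene under PBA), 0 to 2 (treated hIAPP against untreated wild type) and 0 to 0 (interaction). Over all genes they ranged from 572 to 1578, 166 to 968, 0 to 2, 5 to 13, 2 to 16 and 0 to 3. The direction turned in these cases, none of them called: Ms4a7 for PBA in wild type, 0.02 with the median of its probe sets. Csf1r turned under PBA with the acinar covariate (-0.03), and against untreated wild type with that covariate (-0.50), without both arrays (-0.25), without untreated wild type 1 (-0.10) and without PBA-treated hIAPP 1 (-0.25). Ptprc turned against untreated wild type without untreated wild type 2 (-0.15). In the interaction Ptprc turned with the covariate (0.59), without both arrays (0.20) and without 1 array (0.25, for untreated wild type 2 and PBA-treated wild type 1), and Csf1r without 1 array (0.10 to 0.25). With each array left out, Csf1r ranged from -0.25 to 0.55 and Ptprc from -0.15 to 0.55 against untreated wild type, and in the interaction they ranged from -0.55 to 0.25 and from -0.45 to 0.25.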
